A study of Rattus norvegicus with 12 samples.

Results

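This account covers 40 genes of the interferon response and the immunoproteasome in cultured rat heart muscle cells. They were taken by gene symbol from a list of 40, of which 37 are among the 17312 symbols in the data. Herc6, Xaf1 and Samd9l were not analysed here. Of the 37, 33 passed the filter on low values (at least 1 FPKM in at least 3 libraries) and were tested among 10518 genes. Oas2, Mx1 and Rsad2 stayed below that filter, and Tap2 was listed at 0 in every library, which can be a failed estimate. FPKM are fragments divided by the length of the transcript and the size of the library.

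The study sequenced polyadenylated RNA of cardiomyocytes from the ventricles of newborn Wistar rats, with 12 libraries in 4 groups of 3. The stretched Wnt5a siRNA group was treated with an siRNA that targets the transcript of the secreted ligand Wnt5a, and was stretched. The stretched control group received a control siRNA and was stretched. The unstretched Wnt5a siRNA group and the unstretched control group received the same siRNAs and were not stretched. Every group, the unstretched control included, thus carried an siRNA, and all were cells in culture. The sources used here give neither the strength nor the duration of the stretch. Nothing in the labels says whether the numbered libraries stem from separate cultures, so the spread that p-values measure here may be technical.

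Interferons are secreted proteins that warn cells of infection. They bind receptors that activate JAK kinases, which phosphorylate transcription factors of the STAT family, STAT2 among them. STAT2 and IRF9 are part of a complex that binds the interferon-stimulated response element (ISRE) in the promoters of responding genes. The responding genes include sensors of foreign RNA, antiviral effectors and the complex's own subunits. Type II interferon acts mainly through STAT dimers, which bind the gamma-activated site (GAS). Interferons also raise 3 catalytic proteasome subunits, Psmb8, Psmb9 and Psmb10, that replace Psmb5, Psmb6 and Psmb7 in newly made immunoproteasomes and alter the peptides made for MHC class I molecules.

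Promoter windows from 250 bases before to 50 bases after the gene start were found for 30 of the 40 members in RefSeq (rat assembly GRCr8). The ISRE was searched as GAAA, any 2 bases (NN) and GAAA again, and the GAS as TTCNNNGAA, on both strands. An ISRE match lay in 20 of the 30 windows (66.67%), against 3.92% of 33469 windows in the table. A GAS match lay in 7 of the 30 (23.33%), against 8.87%. Stretches of 30 bases around an ISRE match are shown for 10 members with differing changes in expression, read 5′ to 3′ on the strand of the gene, with the matching letters in capitals. Where the capitals run beyond 10 letters, matches overlap, and letters beginning with TTTC are a match on the other strand.
Parp14 (chr11:78408048-78408077, plus strand): tccaggaaatGAAAGTGAAAgaagtaagtt
Dtx3l (chr11:78320225-78320254, plus strand): cccgggaaacGAAACTGAAActttgcctct
Irf7 (chr1:205800073-205800102, minus strand): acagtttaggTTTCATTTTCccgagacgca
Oas1a (chr12:41330415-41330444, plus strand): cccctctcggGAAATGGAAACTGAAAatct
Bst2 (chr16:18255079-18255108, minus strand): ccctttccagGAAAATGAAACTGAAAggtg
Tapbp (chr20:4967884-4967913, minus strand): gcctttgaggGAAAATGAAAGTGAAAggaa
Psmb8 (chr20:4657016-4657045, minus strand): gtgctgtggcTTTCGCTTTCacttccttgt
B2m (chr3:129549170-129549199, plus strand): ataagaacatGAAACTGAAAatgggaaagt
Ifitm2 (chr1:205482362-205482391, minus strand): ccaccaacagGAAAAGGAAActgctagaga
Ifitm3 (chr1:205541783-205541812, minus strand): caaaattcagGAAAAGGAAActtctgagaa
The windows of Parp9, Irf1, Irf9, Stat2, Herc6, Trim25, Oasl, Mx1, Cmpk2 and Psmb9 hold no such letters. Ddx58, Dhx58, Isg15, Usp18, Ifit2, Oas2, Mx2, Rtp4, Samd9l and Ifitm1 had no window.

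The whole windows are given for Bst2 and Ifitm3, both of which hold the ISRE letters and which changed in opposite directions with stretch under the control siRNA. Bst2 lies at chr16:18254918-18255217 on the minus strand and Ifitm3 at chr1:205541709-205542008 on the minus strand, both in GRCr8.
Bst2: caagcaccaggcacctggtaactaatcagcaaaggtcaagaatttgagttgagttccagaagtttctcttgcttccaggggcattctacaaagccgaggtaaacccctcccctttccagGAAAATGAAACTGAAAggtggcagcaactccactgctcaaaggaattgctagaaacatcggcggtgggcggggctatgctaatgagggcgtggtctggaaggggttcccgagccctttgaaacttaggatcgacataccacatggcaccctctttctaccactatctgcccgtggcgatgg
Ifitm3: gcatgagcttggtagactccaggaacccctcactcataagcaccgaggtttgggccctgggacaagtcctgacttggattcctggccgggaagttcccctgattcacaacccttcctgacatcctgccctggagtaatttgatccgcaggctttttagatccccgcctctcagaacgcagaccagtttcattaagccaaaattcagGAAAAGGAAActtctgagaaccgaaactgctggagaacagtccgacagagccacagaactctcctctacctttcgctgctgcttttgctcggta

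Summed FPKM were 575161 to 709021 per library, and FPKM alone do not give the sequencing depth. Stretched control 3 stood apart from its group: it scored −3.99 on the second principal component, against 25.15 and 24.76 in the other stretched controls. Values without it are given for some of the calls and counts that they change. Wnt5a was at 6.22, 5.88 and 5.56 FPKM in the stretched Wnt5a siRNA and 6.52, 5.66 and 8.22 FPKM in the stretched control libraries, which overlapped, so under stretch the target transcript gives no check of the siRNA labels. Unstretched, it was at 6.15, 4.60 and 6.81 FPKM with the Wnt5a siRNA and 12.3, 10.4 and 11.6 FPKM with the control siRNA, without overlap. Of 12 cardiomyocyte markers 11 are listed and none was at 0, and their summed level was 15900 to 19711 FPKM in the stretched Wnt5a siRNA, 18609 to 28018 in the stretched control, 18836 to 19845 in the unstretched Wnt5a siRNA and 24167 to 26821 in the unstretched control libraries. The 16 macrophage and leukocyte markers summed to 395.6 to 440.7, 361.1 to 603.1, 164.1 to 176.9 and 208.8 to 269.8 FPKM in the same order of groups. The 12 fibroblast markers (Col1a2 listed at 0) summed to 10150 to 10720, 5966 to 9948, 6185 to 6412 and 4264 to 4776 FPKM, and the 12 endothelial markers to 59.3 to 98.3, 45.79 to 55.5, 33.41 to 45.73 and 42.41 to 54.43 FPKM. The stretched control ranges of the first 3 lists rest on stretched control 3, which had 18609, 603.1 and 9948 FPKM of cardiomyocyte, macrophage and fibroblast markers, against 25508 and 28018, 361.1 and 368.4, and 6075 and 5966 FPKM in stretched controls 1 and 2.

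The first comparison asked how the genes differed with stretch under the control siRNA. Most interferon-response members were lower in the stretched control than in the unstretched control, while the 3 IFITM genes were higher. Of 33 tested members 21 fell and 3 rose at an adjusted p under 0.05, the threshold for every count of genes that rose or fell. Of all tested genes 26.8% were lower and 27.5% higher (54.3% in either direction). The members' median log2 change was −0.58, against 0.01 over all tested genes. The log2 changes are of log2(FPKM + 1) ± SE from limma, with p-values adjusted by Benjamini and Hochberg over all tested genes, and the added 1 understates changes of genes at low FPKM. Libraries of the groups did not overlap for 20 members in the lower and 3 in the higher direction, beside 29.0% of all tested genes in each direction. With TPM scaling, which sets each library to an equal sum and shifts the median of all genes to −0.19, 26 members were lower and 3 higher, and the split of all genes became 1451 higher and 4493 lower, against 2889 and 2822. In these bulk libraries fewer cells of a type and less RNA per cell cannot be told apart. Leaving out stretched control 3 gave 20 members lower and 3 higher. Between these groups the marker genes moved too: 9 of 15 tested macrophage markers and 8 of 11 fibroblast markers rose (with TPM scaling 3 macrophage markers did). Of 11 cardiomyocyte markers 3 rose and 4 fell, and of 11 endothelial markers 1 rose and 1 fell. With stretched control 3 left out, 7 macrophage and 8 fibroblast markers rose, and 1 fibroblast and 2 endothelial markers fell. Their part in the members' changes was not tested.

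With the Wnt5a siRNA, 4 members rose with stretch and none fell, beside 8.44% of all tested genes higher and 7.59% lower. They were Ifit2, Ifitm1, Ifitm2 and Ifitm3. With TPM scaling Psmb9 also fell (−0.47, adjusted p = 0.0187), and the split of all genes was 502 higher and 1776 lower, against 888 and 798. The members' median log2 change was −0.02, against −0.01 over all tested genes. Libraries did not overlap for 7 members in the higher and 3 in the lower direction, beside 20.1% and 20.6% of all tested genes. In this comparison 14 of 15 macrophage markers and 8 of 11 fibroblast markers rose, and 1 fibroblast marker fell. Of 11 endothelial markers 6 rose, and of 11 cardiomyocyte markers 4 fell. Their part in the rise of the 4 members was not tested.

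The Wnt5a siRNA under stretch was then compared with the control siRNA under stretch. Of the 33 members 18 were higher and 2, Ifitm1 and B2m, lower in the stretched Wnt5a siRNA libraries, beside 13.2% of all tested genes higher and 14.2% lower. The median log2 change was 0.50, against 0.00 over all tested genes. Libraries did not overlap for 18 members in the higher and 3 in the lower direction, beside 18.6% and 19.0%. TPM scaling, under which the median of all genes was 0.10, gave 20 members higher and 2 lower, and 2187 of all genes higher and 811 lower, against 1386 and 1489. Leaving out stretched control 3 gave 18 members higher and 4 lower. Of the markers, 6 of 11 fibroblast genes were higher, 3 of 11 endothelial genes were higher and 1 lower, 3 of 11 cardiomyocyte genes were lower and 1 of 15 macrophage genes was lower. With stretched control 3 left out, 8 cardiomyocyte markers were lower, 7 fibroblast and 4 endothelial markers were higher and 1 endothelial marker lower, and 1 macrophage marker was higher and none lower. The part of the markers in the members' difference was not tested. This comparison uses the same stretched control libraries as the first, so the opposite signs of both are not independent of each other.

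Without stretch, 1 member was higher with the Wnt5a siRNA than with the control siRNA, Ifit2, and 5 were lower: Parp9, Irf7, Isg20, Tapbp and B2m. Of all tested genes 14.6% were higher and 13.9% lower, so the members' counts were not above the background in the higher direction and lay near it in the lower. The median log2 change was −0.01, against 0.00. Libraries did not overlap for 3 members in the higher and 7 in the lower direction, beside 24.7% in each direction over all tested genes. Leaving out unstretched control 2 left 3 calls, and leaving out unstretched control 3 or any of unstretched Wnt5a siRNA 1, 2 or 3 left 2, against 6. Of the markers, 11 of 15 macrophage genes were lower with the Wnt5a siRNA here, 4 of 11 cardiomyocyte genes were lower and 1 higher, 4 of 11 fibroblast genes were higher and 1 lower, and 1 of 11 endothelial genes was lower. Without stretched control 3, which is outside this comparison but enters the common spread, 8 cardiomyocyte markers were lower. Their part was not tested.

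The interaction asked whether stretch acted differently under each siRNA. It is the log2 change with stretch under the Wnt5a siRNA minus that under the control siRNA. At an adjusted p under 0.05 it was positive for 13 of the 33 members and negative for none. Of all tested genes 11.7% were positive and 12.1% negative (23.8% either way), and the members' median was 0.48 against 0.00. Whatever the p-value, the interaction was above 0 for 27 members and below 0 for 6. The 13 were Ddx58, Dhx58, Parp9, Parp14, Irf7, Irf9, Stat2, Usp18, Oas1a, Mx2, Bst2, Rtp4 and Tapbp. Of the markers 1 macrophage, 3 fibroblast and 5 endothelial genes had a positive interaction, as had 2 cardiomyocyte genes, with 1 negative. Without stretched control 3 the positive ones were 7 macrophage, 5 fibroblast, 3 endothelial and 2 cardiomyocyte genes, and 5 cardiomyocyte genes were negative. The markers' part was not tested. Without stretched control 3 the members' count was 18, and it was 9 without unstretched control 2. With TPM scaling 14 members were positive, and 1612 of all genes were positive and 815 negative, against 1226 and 1277.

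**Figure D1:**
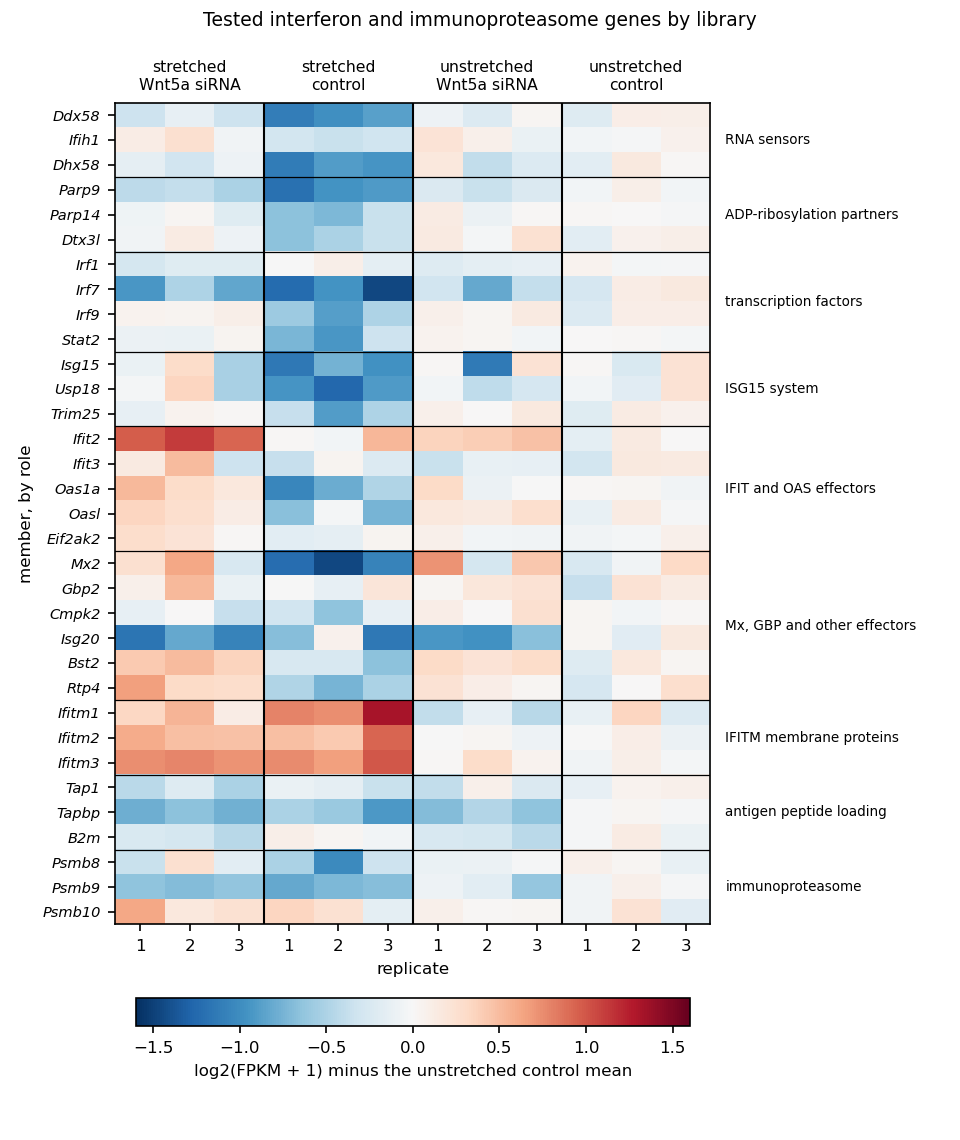
The heat map shows log2(FPKM + 1) of each tested member in every library minus the member's mean in the unstretched control libraries (color scale), with members in rows by role and the libraries in columns, stretched Wnt5a siRNA first and unstretched control last. Most rows are lowest in the 3 stretched control columns, and the IFITM rows are highest in the stretched columns.

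The 3 RNA sensors recognise viral RNA in the cytoplasm: Ddx58 encodes RIG-I, Ifih1 MDA5 and Dhx58 LGP2, a regulator of both. All 3 fell with stretch under the control siRNA and were higher with the Wnt5a siRNA under stretch. Ddx58 was at 7.49, 8.72 and 7.49 FPKM in the stretched Wnt5a siRNA, 3.97, 4.38 and 4.85 in the stretched control, 9.10, 8.16 and 9.87 in the unstretched Wnt5a siRNA and 8.28, 10.5 and 10.3 FPKM in the unstretched control libraries. The stretched control libraries lay below all 9 others. The log2 change with stretch was −0.98 ± 0.11 with the control siRNA (adjusted p = 2.1e-05) and −0.17 ± 0.11 with the Wnt5a siRNA (adjusted p = 0.3258), and the interaction was 0.81 ± 0.16 (adjusted p = 0.0051). Dhx58 was at 2.35, 1.99 and 2.49 FPKM in the stretched Wnt5a siRNA, 0.702, 0.997 and 0.92 in the stretched control, 3.16, 1.82 and 2.19 in the unstretched Wnt5a siRNA and 2.29, 3.11 and 2.74 FPKM in the unstretched control libraries. Its stretched control mean was 32.2% of the unstretched control mean, and its stretched Wnt5a siRNA mean was 260.5% of the stretched control mean. On the log2(FPKM + 1) scale these were −0.98 ± 0.15 (adjusted p = 2.0e-04) and 0.81 ± 0.15 (adjusted p = 0.0047), with an interaction of 0.95 ± 0.22 (adjusted p = 0.0099). With an added 0.1 in place of 1 they were −1.53, 1.29 and 1.50.

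The fitted changes of Ifih1 were smaller. It was at 5.07, 5.70 and 4.37 FPKM in the stretched Wnt5a siRNA, 3.57, 3.38 and 3.505 in the stretched control, 5.53, 4.91 and 4.19 in the unstretched Wnt5a siRNA and 4.42, 4.51 and 4.88 FPKM in the unstretched control libraries. The change with stretch under the control siRNA was −0.32 ± 0.11 (adjusted p = 0.0281), and the call was lost with quantile normalization (0.2499) and without unstretched control 2 (0.0561) or 3 (0.0909) or stretched control 1 (0.0518) or 2 (0.0656). The difference with the Wnt5a siRNA under stretch, 0.43 ± 0.11 (adjusted p = 0.0169), was lost with quantile normalization (0.1124), with only the libraries compared (0.0576) and without stretched control 1 (0.0524) or 2 (0.0512) or stretched Wnt5a siRNA 2 (0.0596).

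**Figure D2:**
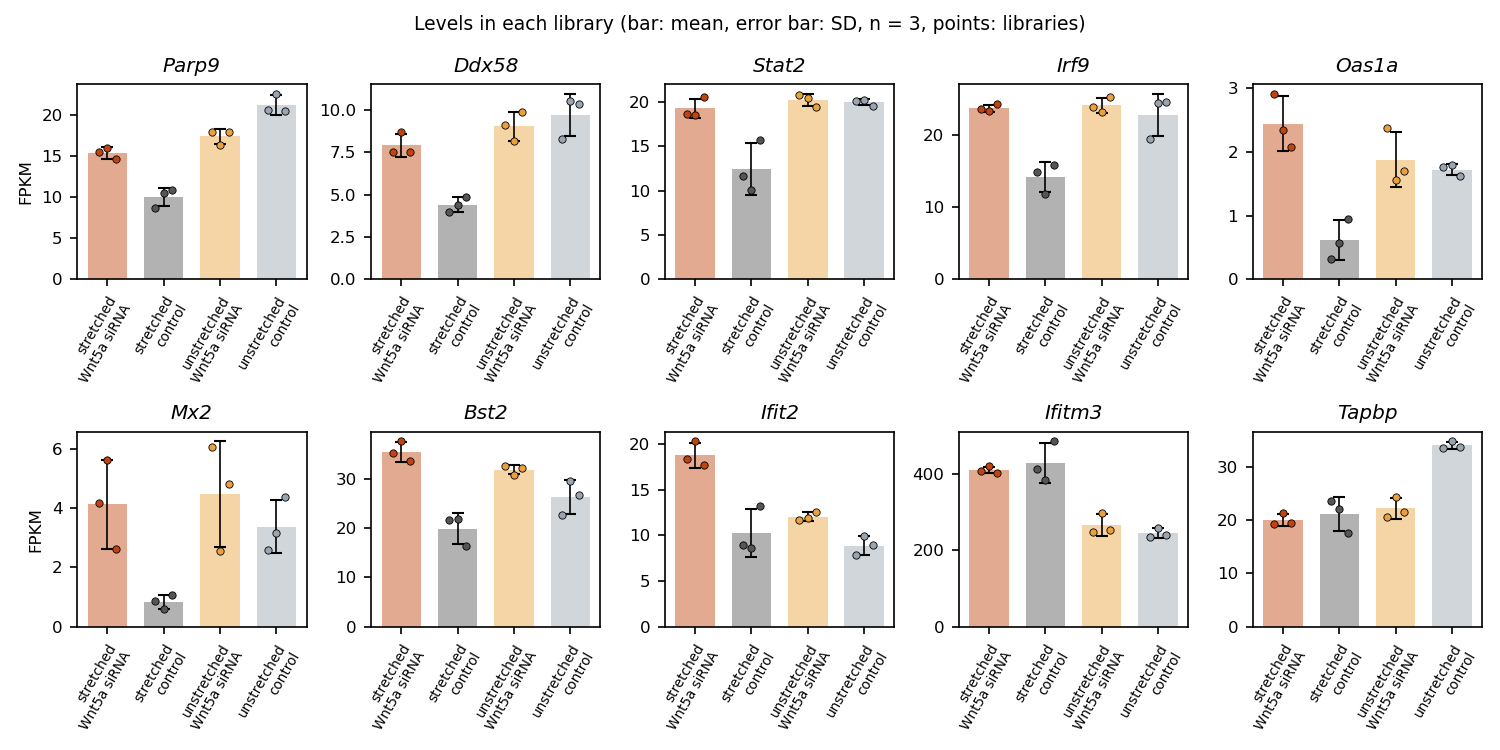
Points give the FPKM of 10 members in each library by group, stretched Wnt5a siRNA first and unstretched control last, with bars for the mean and error bars for the SD of 3 libraries. Parp9, Ddx58, Stat2, Irf9, Oas1a, Mx2 and Bst2 were lowest on average in the stretched control, Ifit2 was highest in the stretched Wnt5a siRNA, Ifitm3 was higher in both stretched groups, and Tapbp was highest in the unstretched control.

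Parp9 encodes a poly(ADP-ribose) polymerase family protein that pairs with the ubiquitin ligase Dtx3l, and Parp14 a mono-ADP-ribosyltransferase. The 3 genes are neighbours in the rat assembly GRCr8, with no other protein-coding gene between them. All 3 fell with stretch under the control siRNA and all 3 were higher with the Wnt5a siRNA under stretch. Parp9 was at 15.5, 16.0 and 14.6 FPKM in the stretched Wnt5a siRNA, 8.72, 10.4 and 10.9 in the stretched control, 17.9, 16.4 and 18.0 in the unstretched Wnt5a siRNA and 20.6, 22.6 and 20.4 FPKM in the unstretched control libraries. The 4 groups did not overlap. Stretch changed it by −1.02 ± 0.09 with the control siRNA (adjusted p = 3.8e-06) and by −0.17 ± 0.09 with the Wnt5a siRNA (adjusted p = 0.2142), with an interaction of 0.85 ± 0.12 (adjusted p = 0.0017). The Wnt5a siRNA difference was 0.58 ± 0.09 under stretch (adjusted p = 0.0019). It was −0.27 ± 0.09 without stretch (adjusted p = 0.0354), a call that was lost with TPM scaling (0.0589) and when any one of the 6 unstretched libraries was left out, with a highest adjusted p over the alternatives of 0.1306.

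Parp14 was at 8.42, 9.06 and 7.58 FPKM in the stretched Wnt5a siRNA, 5.24, 4.96 and 6.68 in the stretched control, 9.77, 8.24 and 9.01 in the unstretched Wnt5a siRNA and 9.01, 8.87 and 8.69 FPKM in the unstretched control libraries. Dtx3l was at 5.89, 6.80 and 5.76 FPKM in the stretched Wnt5a siRNA, 3.52, 4.02 and 4.57 in the stretched control, 6.89, 5.98 and 7.47 in the unstretched Wnt5a siRNA and 5.36, 6.504 and 6.61 FPKM in the unstretched control libraries. For both the stretched control libraries were below the others. With stretch under the control siRNA the changes were −0.58 ± 0.11 for Parp14 (adjusted p = 6.9e-04) and −0.51 ± 0.12 for Dtx3l (adjusted p = 0.0030). The Wnt5a siRNA differences under stretch were 0.50 ± 0.11 for Parp14 (adjusted p = 0.0074) and 0.51 ± 0.12 for Dtx3l (adjusted p = 0.01), the second lost without stretched control 1 (0.0507). The interaction of Parp14, 0.48 ± 0.15 (adjusted p = 0.0382), ranged over the alternatives from an adjusted p of 0.0046 to 0.0926 and was lost with no filter (0.0581) and quantile normalization (0.0663), and without each library other than unstretched Wnt5a siRNA 1, stretched control 3 and stretched Wnt5a siRNA 3. That of Dtx3l was 0.39 ± 0.17 (adjusted p = 0.1079), and it passed without stretched control 3 (0.46).

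Among the 4 transcription factors, Stat2 and Irf9 are subunits of the complex that binds the ISRE, Irf7 amplifies type I interferon induction, and Irf1 is induced mainly by type II interferon. The first 3 fell with stretch under the control siRNA, and Irf1 passed in no comparison of the reported fit. With stretch under the control siRNA Irf1 was at −0.03 (adjusted p = 0.8047). Over the alternatives its lowest log2 change there was −0.24 and its lowest adjusted p 0.0263. Stat2 was at 18.7, 18.6 and 20.5 FPKM in the stretched Wnt5a siRNA, 11.6, 10.03 and 15.7 in the stretched control, 20.7, 20.5 and 19.4 in the unstretched Wnt5a siRNA and 20.1, 20.2 and 19.5 FPKM in the unstretched control libraries. Only the stretched control libraries stood below the rest, and stretched control 3 was the nearest of them. Stat2 changed with stretch by −0.66 ± 0.12 with the control siRNA (adjusted p = 5.5e-04) and −0.07 ± 0.12 with the Wnt5a siRNA (adjusted p = 0.7485). Under stretch it was higher with the Wnt5a siRNA, by 0.61 ± 0.12 (adjusted p = 0.0052). The interaction, 0.60 ± 0.17 (adjusted p = 0.0245), was lost without unstretched control 2 (0.0546), stretched control 1 (0.0562) or stretched Wnt5a siRNA 3 (0.0654).

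Irf9 was likewise lowest in the stretched control. It was at 23.7, 23.4 and 24.3 FPKM in the stretched Wnt5a siRNA, 14.9, 11.9 and 15.9 in the stretched control, 24.0, 23.2 and 25.3 in the unstretched Wnt5a siRNA and 19.5, 24.5 and 24.6 FPKM in the unstretched control libraries. Stretch changed it by −0.65 ± 0.11 with the control siRNA (adjusted p = 3.0e-04), the Wnt5a siRNA difference under stretch was 0.72 ± 0.11 (adjusted p = 0.0019), and the interaction was 0.63 ± 0.15 (adjusted p = 0.0129). Irf7 was at 9.22, 12.9 and 9.93 FPKM in the stretched Wnt5a siRNA, 7.31, 9.09 and 6.12 in the stretched control, 14.8, 10.1 and 13.9 in the unstretched Wnt5a siRNA and 15.2, 20.1 and 20.7 FPKM in the unstretched control libraries. Its stretched control libraries lay below all others and its unstretched control libraries above all others. It changed by −1.21 ± 0.17 with stretch under the control siRNA (adjusted p = 1.1e-04), and the interaction was 0.96 ± 0.25 (adjusted p = 0.0164). The Wnt5a siRNA difference was 0.46 ± 0.17 under stretch, short of the threshold (adjusted p = 0.0678), which it passed without stretched control 2 (0.0482) and with TPM scaling (0.0342). Without stretch it was −0.50 ± 0.17 (adjusted p = 0.0481), a call lost with an added 0.1 (0.0538), no filter (0.0786), TPM scaling (0.0520) and no trend (0.0572), and without any 1 of 8 of the 12 libraries (unstretched control 2 or 3, any unstretched Wnt5a siRNA library, stretched control 1, or stretched Wnt5a siRNA 1 or 3), with a highest adjusted p over the alternatives of 0.1920. Irf1 was between 11.5 and 15.1 FPKM in every library, and its difference with the Wnt5a siRNA under stretch was −0.20 ± 0.08 (adjusted p = 0.0759), or −0.27 without stretched control 3 (adjusted p = 0.0099).

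The ISG15 system attaches a ubiquitin-like protein, Isg15, to other proteins. Usp18 removes it and restrains the type I receptor, and Trim25 is a ligase that activates RIG-I. All 3 tested genes fell with stretch under the control siRNA. Usp18 was at 8.53, 11.4 and 5.78 FPKM in the stretched Wnt5a siRNA, 4.08, 3.09 and 4.19 in the stretched control, 8.47, 6.33 and 7.11 in the unstretched Wnt5a siRNA and 8.42, 7.62 and 10.4 FPKM in the unstretched control libraries. Usp18 changed with stretch by −1.03 ± 0.19 with the control siRNA (adjusted p = 7.5e-04) and 0.17 ± 0.19 with the Wnt5a siRNA (adjusted p = 0.6016), and the interaction was 1.20 ± 0.28 (adjusted p = 0.0099). Under stretch the Wnt5a siRNA difference was 0.96 ± 0.19 (adjusted p = 0.0059). Trim25 was at 12.7, 14.6 and 14.2 FPKM in the stretched Wnt5a siRNA, 10.6, 7.09 and 9.67 in the stretched control, 14.9, 14.1 and 15.7 in the unstretched Wnt5a siRNA and 12.1, 15.4 and 14.7 FPKM in the unstretched control libraries. It fell by 0.59 with stretch under the control siRNA (log2 change −0.59 ± 0.13, adjusted p = 0.0021) and was 0.57 ± 0.13 higher with the Wnt5a siRNA under stretch (adjusted p = 0.0093). Its interaction was 0.48 ± 0.18 (adjusted p = 0.0710), which passed without stretched control 3 (0.53) and with TPM scaling (0.58).

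Isg15 itself was more variable. It was at 14.9, 19.9 and 10.97 FPKM in the stretched Wnt5a siRNA, 6.76, 9.09 and 7.75 in the stretched control, 16.4, 6.80 and 19.1 in the unstretched Wnt5a siRNA and 16.3, 13.4 and 19.2 FPKM in the unstretched control libraries. Unstretched Wnt5a siRNA 2 was as low as the stretched control libraries. The change with stretch under the control siRNA was −0.96 ± 0.30 (adjusted p = 0.0168) and was lost without unstretched control 3 (0.0639) or stretched control 1 (0.0557). The Wnt5a siRNA difference under stretch, 0.85 ± 0.30, did not pass (adjusted p = 0.0527), and passed without unstretched Wnt5a siRNA 2 (0.0105) or 3 (0.0403), with TPM scaling (0.0355) and with only the libraries compared (0.0374).

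Of the IFIT and OAS group, Ifit2 binds viral RNA and limits its translation, Oas1a makes the 2-5A messenger that activates RNase L, Oasl is a related protein, and Eif2ak2 encodes the kinase PKR, which halts translation on double-stranded RNA. Ifit2 did not share the fall with stretch. It was at 18.3, 20.4 and 17.7 FPKM in the stretched Wnt5a siRNA, 8.93, 8.58 and 13.2 in the stretched control, 11.65, 11.9 and 12.6 in the unstretched Wnt5a siRNA and 7.83, 9.89 and 8.92 FPKM in the unstretched control libraries. The stretched Wnt5a siRNA libraries lay above all others, with a mean of 211.9% of the unstretched control mean. Stretch changed it by 0.17 ± 0.14 with the control siRNA (adjusted p = 0.3118) and by 0.60 ± 0.14 with the Wnt5a siRNA (adjusted p = 0.0111), but the interaction was 0.43 ± 0.19 (adjusted p = 0.1209). Without stretched control 3, the highest of its group, the interaction was 0.61 and passed. With the Wnt5a siRNA it was higher by 0.84 ± 0.14 under stretch (adjusted p = 0.0025). Without stretch it was 0.41 ± 0.14 (adjusted p = 0.0406), lost with no filter on low values (0.0648) and without unstretched control 1 or 3, any unstretched Wnt5a siRNA library, or stretched Wnt5a siRNA 1 or 3, with a highest adjusted p over the alternatives of 0.1336.

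Oas1a was at 2.91, 2.35 and 2.07 FPKM in the stretched Wnt5a siRNA, 0.319, 0.573 and 0.942 in the stretched control, 2.37, 1.56 and 1.71 in the unstretched Wnt5a siRNA and 1.76, 1.79 and 1.62 FPKM in the unstretched control libraries. The stretched control mean was 35.5% of the unstretched control mean, and the stretched Wnt5a siRNA mean was 399.7% of the stretched control mean. On the log2(FPKM + 1) scale the change with stretch under the control siRNA was −0.77 ± 0.16 (adjusted p = 0.0016), the Wnt5a siRNA difference under stretch 1.11 ± 0.16 (adjusted p = 0.0018) and the interaction 1.04 ± 0.23 (adjusted p = 0.0088). With an added 0.1 they were −1.45, 1.92 and 1.82. Oas1a has close copies in the rat genome, and the sources used here do not say how reads matching several genes were treated, so its level is uncertain.

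Oasl was at 2.63, 2.43 and 2.09 FPKM in the stretched Wnt5a siRNA, 0.787, 1.80 and 0.703 in the stretched control, 2.21, 2.16 and 2.42 in the unstretched Wnt5a siRNA and 1.62, 2.14 and 1.82 FPKM in the unstretched control libraries. Stretched control 2 overlapped the unstretched control. Stretch changed Oasl by −0.48 ± 0.17 with the control siRNA (adjusted p = 0.0318; −0.82 with an added 0.1), lost with quantile normalization (0.2125), with only the libraries compared (0.0958) and without unstretched control 2 (0.1045) or 3 (0.0662) or stretched control 1 (0.1138) or 3 (0.1051). Under stretch Oasl differed with the Wnt5a siRNA by 0.73 ± 0.17 (adjusted p = 0.0112; 1.16 with an added 0.1), lost with quantile normalization (0.0508), with only the libraries compared (0.0561) and without stretched control 1 (0.0551). Eif2ak2 was at 22.9, 21.9 and 19.0 FPKM in the stretched Wnt5a siRNA and 16.5, 16.8 and 19.4 FPKM in the stretched control libraries, which overlapped. Unstretched, it was at 19.8, 18.1 and 18.04 FPKM with the Wnt5a siRNA and 17.9, 18.3 and 19.9 FPKM with the control siRNA. Its difference under stretch of 0.26 ± 0.09 (adjusted p = 0.0432) held without stretched control 3 or stretched Wnt5a siRNA 3 and was lost without any other single library, with no filter (0.0552) and with only the libraries compared (0.1209). Ifit3 lay between 0.697 and 2.11 FPKM in every library and passed in no comparison. Oas2 was at most 0.163 FPKM in the stretched Wnt5a siRNA, 0.184 in the stretched control, 0.526 in the unstretched Wnt5a siRNA and 0.802 in the unstretched control libraries, and was not tested.

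Mx2 encodes a dynamin-like GTPase that restricts viruses, Bst2 encodes tetherin, which holds budding virus at the cell surface, Rtp4 an interferon-induced transmembrane chaperone, Isg20 an exonuclease of RNA, Gbp2 a guanylate-binding GTPase and Cmpk2 a mitochondrial nucleotide kinase. Mx2, Bst2, Rtp4 and Isg20 fell with stretch under the control siRNA. Mx2 was at 4.18, 5.62 and 2.62 FPKM in the stretched Wnt5a siRNA, 0.859, 0.578 and 1.06 in the stretched control, 6.08, 2.55 and 4.83 in the unstretched Wnt5a siRNA and 2.61, 3.16 and 4.37 FPKM in the unstretched control libraries. Its stretched control mean was 24.6% of the unstretched control mean and the stretched Wnt5a siRNA mean was 497.9% of the stretched control mean. The log2 changes were −1.25 ± 0.26 with stretch under the control siRNA (adjusted p = 0.0017; −1.90 with an added 0.1) and 1.45 ± 0.26 with the Wnt5a siRNA under stretch (adjusted p = 0.0039). The interaction of 1.17 ± 0.37 (adjusted p = 0.0407; 1.81 with an added 0.1) ranged from an adjusted p of 0.0214 to 0.1008 over the alternatives. It was lost with no filter (0.0675) and quantile normalization (0.0646), and without unstretched control 2 or 3, unstretched Wnt5a siRNA 2, stretched control 1 or 2, or stretched Wnt5a siRNA 1 or 2. Mx1, a near neighbour of Mx2 with a similar sequence, was between 0.0719 and 1.03 FPKM and was not tested, and reads of the pair may have been split.

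Bst2 was at 35.4, 37.8 and 33.7 FPKM in the stretched Wnt5a siRNA, 21.7, 21.8 and 16.3 in the stretched control, 32.6, 30.8 and 32.3 in the unstretched Wnt5a siRNA and 22.7, 29.7 and 26.8 FPKM in the unstretched control libraries. Both Wnt5a siRNA groups lay above both control groups, and the 4 groups did not overlap. Stretch changed Bst2 by −0.39 ± 0.11 with the control siRNA (adjusted p = 0.0119), lost without unstretched control 2 (0.0586) and with only the libraries compared (0.0521). Between the siRNAs Bst2 differed by 0.82 ± 0.11 under stretch (adjusted p = 0.0016) and 0.27 ± 0.11 without it (adjusted p = 0.0934), the second passing without stretched control 3 (0.0239) and with only the libraries compared (0.0498). The interaction of 0.54 ± 0.16 (adjusted p = 0.0299) was lost without unstretched control 2 or 3, unstretched Wnt5a siRNA 1 or 2, or stretched Wnt5a siRNA 1 or 2, with a highest adjusted p over the alternatives of 0.0768. Rtp4 was at 5.10, 3.79 and 3.72 FPKM in the stretched Wnt5a siRNA, 1.77, 1.32 and 1.74 in the stretched control, 3.54, 3.18 and 2.96 in the unstretched Wnt5a siRNA and 2.21, 2.89 and 3.67 FPKM in the unstretched control libraries. It changed by −0.58 ± 0.15 with stretch under the control siRNA (adjusted p = 0.0071), by 0.99 ± 0.15 with the Wnt5a siRNA under stretch (adjusted p = 0.0020), and its interaction was 0.87 ± 0.22 (adjusted p = 0.0145).

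Isg20 was the member of its group that was lower with the Wnt5a siRNA without stretch. It was at 9.48, 12.4 and 10.2 FPKM in the stretched Wnt5a siRNA, 13.7, 23.6 and 9.62 in the stretched control, 11.4, 11.1 and 13.8 in the unstretched Wnt5a siRNA and 23.1, 19.7 and 25.2 FPKM in the unstretched control libraries. The stretched control libraries were widely spread, and the unstretched control libraries were higher than those of both Wnt5a siRNA groups. The change with stretch under the control siRNA, −0.59 ± 0.23 (adjusted p = 0.0462), was lost without any single library other than stretched control 2, with no filter (0.0765), with no trend (0.0565) and with only the libraries compared (0.1082), with a highest adjusted p over the alternatives of 0.1797. Between the siRNAs Isg20 differed by −0.86 ± 0.23 without stretch (adjusted p = 0.0164), lost without unstretched control 3 (0.0639), unstretched Wnt5a siRNA 1 (0.0557) or 2 (0.0572). Under stretch it was −0.43 ± 0.23 (adjusted p = 0.1791), or −0.71 without stretched control 3 (adjusted p = 0.0096). Gbp2 lay between 3.71 and 7.66 FPKM and Cmpk2 between 0.319 and 1.47 FPKM, and neither passed in any comparison. Cmpk2 was at −0.36 ± 0.16 with stretch under the control siRNA (adjusted p = 0.0684), and it passed with TPM scaling (0.0252), with no filter (0.0465) and without a trend (0.0355). Rsad2, its neighbour, which encodes viperin, was between 0.257 and 1.51 FPKM and was not tested.

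The IFITM genes, which encode membrane proteins that block virus entry, were the members that rose with stretch under both siRNAs. They are adjacent in GRCr8 in the order Ifitm2, Ifitm1, Ifitm3 and similar in sequence, so reads may be shared between them. Ifitm3 was at 407.4, 419.4 and 402.1 FPKM in the stretched Wnt5a siRNA, 411.4, 384.5 and 485.4 in the stretched control, 246.5, 298.0 and 253.1 in the unstretched Wnt5a siRNA and 234.2, 259.1 and 238.3 FPKM in the unstretched control libraries. Ifitm2 was at 289.2, 266.8 and 265.6 FPKM in the stretched Wnt5a siRNA, 268.3, 257.4 and 367.7 in the stretched control, 191.0, 196.5 and 181.2 in the unstretched Wnt5a siRNA and 190.7, 205.4 and 179.5 FPKM in the unstretched control libraries. For both, all stretched libraries lay above all unstretched ones, and the 2 stretched groups overlapped. With stretch Ifitm3 rose by 0.80 ± 0.09 with the control siRNA (adjusted p = 2.3e-05) and 0.63 ± 0.09 with the Wnt5a siRNA (adjusted p = 0.0012), and Ifitm2 by 0.62 ± 0.11 (adjusted p = 6.0e-04) and 0.53 ± 0.11 (adjusted p = 0.0079). The interaction was −0.17 ± 0.13 for Ifitm3 (adjusted p = 0.3548) and −0.09 ± 0.16 for Ifitm2 (adjusted p = 0.7242).

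Ifitm1 was at 135.4, 157.6 and 117.0 FPKM in the stretched Wnt5a siRNA, 186.6, 180.3 and 268.6 in the stretched control, 81.6, 97.8 and 78.5 in the unstretched Wnt5a siRNA and 98.8, 136.0 and 92.0 FPKM in the unstretched control libraries. It rose with stretch by 0.95 ± 0.17 with the control siRNA (adjusted p = 6.3e-04) and by 0.66 ± 0.17 with the Wnt5a siRNA (adjusted p = 0.0232), the second lost without unstretched Wnt5a siRNA 1 (0.0809) or 3 (0.0793) or stretched Wnt5a siRNA 1 (0.0752) or 2 (0.0922). Under stretch it was lower with the Wnt5a siRNA, by −0.61 ± 0.17 (adjusted p = 0.0231), lost with quantile normalization (0.0735), with only the libraries compared (0.0510) and without stretched Wnt5a siRNA 1 (0.0617) or 3 (0.0969). For all 3 genes stretched control 3 was the highest library of its group.

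**Figure D3:**
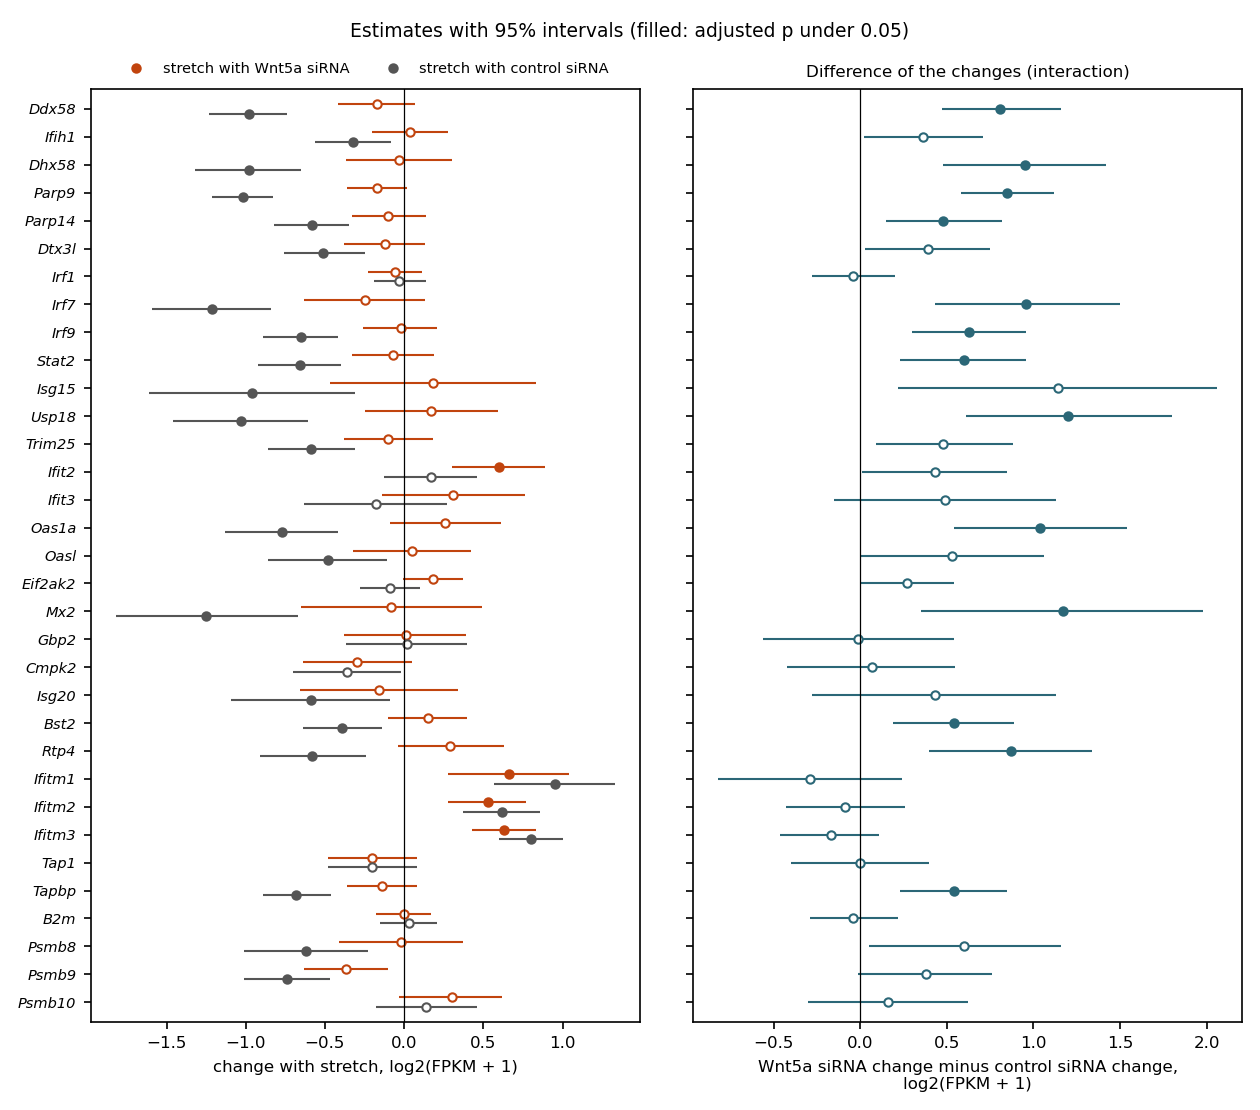
Each row is a tested member, and points with 95% intervals give on the left the change of log2(FPKM + 1) with stretch under the Wnt5a siRNA (orange) and under the control siRNA (grey), and on the right the interaction, filled where the adjusted p was under 0.05. Under the control siRNA 21 members were called lower and the 3 IFITM genes higher, while under the Wnt5a siRNA the called members were the IFITM genes and Ifit2, all higher.

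Antigen peptide loading brings peptides to MHC class I molecules. Tap1 and Tap2 form the transporter into the endoplasmic reticulum, Tapbp (tapasin) holds the class I molecule beside it, and B2m is the class I light chain. Tapbp was at 19.3, 21.2 and 19.5 FPKM in the stretched Wnt5a siRNA, 23.6, 22.1 and 17.5 in the stretched control, 20.6, 24.4 and 21.4 in the unstretched Wnt5a siRNA and 33.5, 34.8 and 33.6 FPKM in the unstretched control libraries. The unstretched control was above the other 3 groups, which overlapped. Tapbp was lower by −0.68 ± 0.10 with stretch under the control siRNA (adjusted p = 1.4e-04) and by −0.60 ± 0.10 with the Wnt5a siRNA without stretch (adjusted p = 0.0017). With the Wnt5a siRNA stretch changed it by −0.14 ± 0.10 (adjusted p = 0.3851), and the interaction was 0.54 ± 0.14 (adjusted p = 0.0187), lost without unstretched Wnt5a siRNA 1 (0.0506). Under stretch the Wnt5a siRNA difference was −0.06 ± 0.10 (adjusted p = 0.6768), so the positive interaction of Tapbp came with another order of the groups than that of Ddx58 or Mx2.

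B2m was at 436.9, 426.6 and 379.1 FPKM in the stretched Wnt5a siRNA, 553.4, 531.5 and 503.5 in the stretched control, 435.2, 424.9 and 385.5 in the unstretched Wnt5a siRNA and 510.1, 568.0 and 479.5 FPKM in the unstretched control libraries. The libraries with the Wnt5a siRNA lay below those with the control siRNA, stretched or not. The Wnt5a siRNA difference was −0.36 ± 0.08 under stretch (adjusted p = 0.0102), lost with quantile normalization (0.0675) and without stretched Wnt5a siRNA 3 (0.0519), and −0.32 ± 0.08 without stretch (adjusted p = 0.0135), lost with quantile normalization (0.1192) and without unstretched control 2 (0.0624) or unstretched Wnt5a siRNA 3 (0.0514). With stretch under the control siRNA its log2 change was 0.03 ± 0.08 (adjusted p = 0.7730) and reversed to −0.20 with TPM scaling (adjusted p = 0.0371). Tap1 lay between 5.95 and 9.42 FPKM in every library and passed in no comparison, although it did with TPM scaling for stretch with the control siRNA (−0.40, adjusted p = 0.0129).

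The immunoproteasome subunits were at low levels beside their constitutive counterparts. Psmb8 was at 3.47, 5.85 and 4.11 FPKM in the stretched Wnt5a siRNA, 3.04, 1.82 and 3.56 in the stretched control, 4.35, 4.37 and 4.65 in the unstretched Wnt5a siRNA and 5.08, 4.87 and 4.27 FPKM in the unstretched control libraries. Psmb9 was at 5.87, 5.64 and 5.92 FPKM in the stretched Wnt5a siRNA, 5.06, 5.51 and 5.69 in the stretched control, 9.14, 8.57 and 5.96 in the unstretched Wnt5a siRNA and 9.33, 10.3 and 9.56 FPKM in the unstretched control libraries. Both fell with stretch under the control siRNA, Psmb8 by −0.62 ± 0.18 (adjusted p = 0.0118) and Psmb9 by −0.74 ± 0.12 (adjusted p = 3.2e-04). Their estimates differed in the other comparisons, but the genes were not tested against each other. Psmb8 changed by −0.02 ± 0.18 with stretch under the Wnt5a siRNA (adjusted p = 0.9629), and Psmb9 by −0.37 ± 0.12 (adjusted p = 0.0652). For Psmb9 the stretched Wnt5a siRNA libraries lay below the unstretched Wnt5a siRNA ones, of which library 3 (5.96 FPKM) was the nearest. Over the alternatives this change of Psmb9 ranged from −0.53 to −0.26 and its adjusted p from 0.0061 to 0.2385. Under stretch Psmb8 was 0.53 ± 0.18 higher with the Wnt5a siRNA (adjusted p = 0.0467), a call that held without stretched control 3 or stretched Wnt5a siRNA 1 and was lost without any other single library, with no filter (0.0743), with quantile normalization (0.1250) and with only the libraries compared (0.1365), with a highest adjusted p over the alternatives of 0.1766. For Psmb9 that difference was 0.09 ± 0.12 (adjusted p = 0.6293). Psmb10 lay between 9.83 and 17.8 FPKM and passed in no comparison. Psmb8 and Psmb9 sit in GRCr8 beside Tap1 and Tap2, in the order Tap2, Psmb8, Tap1, Psmb9.

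The constitutive subunits Psmb5, Psmb6 and Psmb7 were listed at 149.0 to 216.5 FPKM. All 3 rose with stretch under the control siRNA, by 0.47 ± 0.06 (adjusted p = 2.8e-05), 0.28 ± 0.06 (adjusted p = 0.0014) and 0.35 ± 0.06 (adjusted p = 4.9e-04), but 2 of 3 did with quantile normalization and 1 of 3 with TPM scaling. Of all tested genes 27.5% rose in that comparison. In FPKM, which are per transcript length, Psmb8 was 2.40 ± 0.717% of Psmb5 in the stretched Wnt5a siRNA, 1.35 ± 0.447% in the stretched control, 2.77 ± 0.153% in the unstretched Wnt5a siRNA and 3.15 ± 0.254% in the unstretched control (SD, n = 3). Psmb9 was 3.36 ± 0.145%, 2.75 ± 0.279%, 4.79 ± 0.962% and 5.98 ± 0.407% of Psmb6 in the same order of groups. The stretched control was the lowest group on average for both, and its libraries did not overlap those of the unstretched control. Psmb10 was 7.53 ± 1.09%, 6.0 ± 1.03%, 6.94 ± 0.27% and 6.94 ± 1.55% of Psmb7, with overlapping libraries. A scaling factor per library cancels in these ratios.

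**Figure D4:**
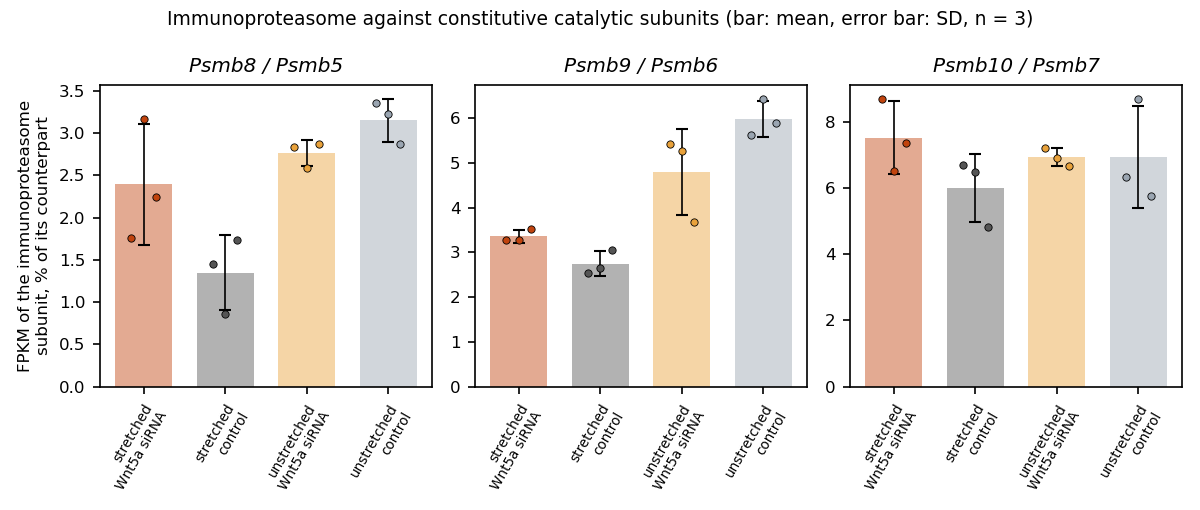
Points give the FPKM of Psmb8, Psmb9 and Psmb10 as a percent of Psmb5, Psmb6 and Psmb7 in each library by group, stretched Wnt5a siRNA first and unstretched control last, with bars for the mean and error bars for the SD of 3 libraries. For Psmb8 and Psmb9 the stretched control points lie below all unstretched control points.

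Around the members, 149 further genes of the pathway were looked up in 10 lists, of which 126 were listed and 107 tested. With stretch under the control siRNA 29 of these rose and 26 fell, and with the Wnt5a siRNA under stretch 20 were higher and 17 lower. The counts of the first comparison lie near the shares over all tested genes, 27.5% higher and 26.8% lower. For the second those shares were 13.2% and 14.2%, and the higher count lies above its share. Of 10 interferon genes 6 were listed and 5 of them were at 0 in every library. The highest value was 0.386 FPKM for Ifng, in 1 stretched control library. Of 5 tested receptors, Ifngr1, the ligand-binding chain for type II interferon, rose with stretch under the control siRNA (0.42 ± 0.07, adjusted p = 4.2e-04), and Il10rb, shared by the type III receptor, fell (−0.24 ± 0.09, adjusted p = 0.0357), a call lost without unstretched control 1 or 2 or stretched control 1 or 2 (adjusted p up to 0.1118). Ifngr1 (−0.34 ± 0.07, adjusted p = 0.0076) and Ifnlr1 (−0.63 ± 0.17, adjusted p = 0.0183) were lower with the Wnt5a siRNA under stretch, the call of Ifnlr1 being lost without stretched control 1 or 2 or stretched Wnt5a siRNA 1 or 3 (adjusted p up to 0.0796).

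Among the 5 receptor kinases and STATs, the kinases Jak1 (−0.29 ± 0.06, adjusted p = 0.0015) and Tyk2 (−0.29 ± 0.11, adjusted p = 0.0367) fell with stretch under the control siRNA. The call of Tyk2 was lost without unstretched control 3 or stretched control 1 or 2 (adjusted p up to 0.1726). Stat3, which serves other cytokines, was lower with the Wnt5a siRNA under stretch (−0.34 ± 0.09, adjusted p = 0.0199), a call lost without stretched control 1 or 2 or stretched Wnt5a siRNA 1 or 3 (adjusted p up to 0.0760).

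Of 43 other tested interferon-stimulated genes, 4 rose and 15 fell with stretch under the control siRNA (3 and 27 with TPM scaling), 15 were higher and 3 lower with the Wnt5a siRNA under stretch, and the interaction was positive for 11 and negative for 2. Over all tested genes the shares were 27.5% and 26.8% for the first, 13.2% and 14.2% for the second, and 11.7% and 12.1% for the interaction. When stretched control 3 was left out, 21 of the 43 were higher and 5 lower with the Wnt5a siRNA under stretch. Adar, which edits double-stranded RNA, was at 21.1, 21.8 and 22.9 FPKM in the stretched Wnt5a siRNA, 14.96, 16.6 and 13.3 in the stretched control, 26.4, 26.2 and 26.0 in the unstretched Wnt5a siRNA and 35.2, 37.7 and 36.5 FPKM in the unstretched control libraries. The 4 groups did not overlap. It changed by −1.23 ± 0.08 with stretch under the control siRNA (adjusted p = 9.9e-07). Trim34, a tripartite motif protein, changed by −1.48 ± 0.13 (adjusted p = 4.7e-06). Plscr1, a phospholipid scramblase, went the other way: it rose by 1.48 ± 0.15 (adjusted p = 8.8e-06) and was lower by −0.97 ± 0.15 with the Wnt5a siRNA under stretch (adjusted p = 0.0020). Lgals9, a secreted galectin, was lower by −1.15 ± 0.09 with the Wnt5a siRNA under stretch (adjusted p = 6.0e-05). The list thus held members called in both directions.

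Of 8 sensing adaptors and kinases 2 rose and 3 fell with stretch under the control siRNA, beside 27.5% and 26.8% of all tested genes. Those that fell were Nod1, a cytoplasmic pattern receptor (−0.67 ± 0.09, adjusted p = 6.5e-05), Ikbke, a kinase of IRF3 and IRF7 (−0.81 ± 0.13, adjusted p = 2.9e-04), and Mavs, the adaptor of RIG-I and MDA5 (−0.64 ± 0.11, adjusted p = 4.8e-04). Nod1 (0.47 ± 0.09, adjusted p = 0.0046) and Tmem173, which encodes STING (0.69 ± 0.14, adjusted p = 0.0061), were among 3 that were higher with the Wnt5a siRNA under stretch. Of all tested genes 13.2% were higher in that comparison. Of 6 feedback inhibitors 2 rose with stretch under the control siRNA, beside 27.5% of all tested genes. They were the phosphatases Ptpn11 (0.32 ± 0.08, adjusted p = 0.0064) and Ptpn2 (0.22 ± 0.07, adjusted p = 0.0206). With TPM scaling none rose and 2 fell, and the call of Ptpn2 was lost without unstretched control 1 or stretched control 2 (adjusted p up to 0.0750).

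Of 16 tested MHC class I heavy chains and loading partners, 6 rose and 1 fell with stretch under the control siRNA, beside 27.5% and 26.8% of all tested genes. With the Wnt5a siRNA under stretch 1 was higher and 5 lower, beside 13.2% and 14.2%. RT1-S3, a class I heavy chain, rose by 1.59 ± 0.11 (adjusted p = 1.4e-06), Canx by 0.73 ± 0.09 and Pdia3 by 0.58 ± 0.07 (adjusted p = 3.4e-05 each), the last 2 being chaperones of class I folding. The heavy chains are near-identical copies of each other, so their single levels are uncertain. Pdia3 was lower with the Wnt5a siRNA under stretch (−0.32 ± 0.07, adjusted p = 0.0091). Of 15 other tested proteasome core and PA28 subunits, 10 rose and 3 fell with stretch under the control siRNA (3 and 3 with TPM scaling), beside 27.5% and 26.8% of all tested genes. Among those that fell were Psme1 (−0.76 ± 0.14, adjusted p = 5.3e-04) and Psme2 (−0.23, adjusted p = 0.0156, or 0.0537 without unstretched control 2), the interferon-inducible PA28 activator, and Psme4 (−0.55 ± 0.09, adjusted p = 3.1e-04), another activator. Psmb4, a structural core subunit, rose by 0.37 ± 0.06 (adjusted p = 3.0e-04).

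Set beside the change with stretch under the control siRNA, an ISRE match lay in 9 of 15 windows of members that fell (60%) and in 8 of 10 windows of tested members that did not (80.00%). These shares leave out members without a window. Of the 21 that fell, Ddx58, Dhx58, Isg15, Usp18, Mx2 and Rtp4 had none, and of the others tested, Ifit2 and Ifitm1. Parp9, Irf9, Stat2, Trim25, Oasl and Psmb9 fell without a match in their windows, and Ifitm2 and Ifitm3 rose with one.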

How the data were processed

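Per the labels' protocols, a miRNeasy kit gave total RNA and a stranded TruSeq kit for mRNA gave the libraries. The deposited values are the authors' FPKM per gene symbol. Their tools included Cuffdiff 2.2.1, TopHat2 2.1.1 and Bowtie2 on the rn6 assembly, per the submitters' processing notes. The sources used here do not give the annotation, the strand setting or the handling of reads with several matches, so close copies and overlapping or antisense genes are uncertain.

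FPKM were taken as log2(FPKM + 1), filtered at 1 FPKM in at least 3 libraries, and fitted with limma 3.58.1 in R 4.3.3 (group means, eBayes with a trend, 8 residual degrees of freedom). Tests were 2-sided, with Benjamini-Hochberg adjustment over 10518 genes and 0.05 as the threshold. The fit was tested on simulated data. The depth is unknown, and the value of 1 fragment, estimated from 1523 low genes, spanned a factor of 1.21 that includes scaling between libraries. An exact permutation test of 3 against 3 libraries cannot go below p = 0.1.

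Members and lists were chosen with earlier results of these data known. All members are named, with each library's value for those that rose, those called in a Wnt5a siRNA comparison or the interaction, and up to 3 per role by adjusted p. From each further list come up to 3 called genes for stretch with control siRNA and up to 2 for Wnt5a siRNA under stretch, and the text names some of them. Some genes that this rule takes are left out of the text.

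Groups come from the treatment labels. Deviations of same-numbered libraries correlated at 0.143 to 0.242 between the stretched and unstretched Wnt5a siRNA groups, over 3 pairs. The reported fit used no pairing in any comparison, and the replicate number entered only as a block in an alternative. The alternatives were an added 0.1, no filter, a filter at FPKM 5, quantile, median ratio and TPM scaling, eBayes with no trend, the replicate block, a fit of only the libraries compared, and leaving out each library. RefSeq promoter windows are of GRCr8, and no coordinates were converted from rn6.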

Additional observations from a re-analysis of the deposited data

Results flagged for a closer look

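For 13 members the test of the difference itself found another change with stretch under each siRNA. The differences, on the log2(FPKM + 1) scale and as the change under the Wnt5a siRNA minus that under the control siRNA, were 0.81 for Ddx58, 0.95 for Dhx58, 0.85 for Parp9 and 0.48 for Parp14. They were 0.96 for Irf7, 0.63 for Irf9, 0.60 for Stat2, 1.20 for Usp18 and 1.04 for Oas1a. They were 1.17 for Mx2, 0.54 for Bst2, 0.87 for Rtp4 and 0.54 for Tapbp. Of these, Ddx58, Dhx58, Irf7, Irf9, Oas1a, Parp9, Rtp4 and Usp18 passed under every alternative that gave a value.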

How the results depend on the processing

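Members called, of 33 tested, ranged over the alternatives other than left-out libraries from 18 to 29 for stretch with the control siRNA (24 as reported), 4 to 5 for stretch with the Wnt5a siRNA (4), 14 to 22 for the Wnt5a siRNA under stretch (20), 4 to 7 for the Wnt5a siRNA without stretch (6) and 9 to 14 for the interaction (13). The filter at FPKM 5, which tests fewer members, gave the 18, the 14 and the 9. Leaving out each library gave 20 to 23, 3 to 5, 15 to 22, 2 to 7 and 9 to 18 calls. For the Wnt5a siRNA without stretch it gave 3 calls without unstretched control 2, and 2 without unstretched control 3 or any unstretched Wnt5a siRNA library.

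The calls that held under every alternative that gave a value were 19 of 24 for stretch with the control siRNA, 3 of 4 for stretch with the Wnt5a siRNA, 13 of 20 for the Wnt5a siRNA under stretch, 1 of 6 for it without stretch (Tapbp) and 8 of 13 for the interaction. A single value reversed with a call: B2m with stretch under the control siRNA was −0.20 with TPM scaling, against 0.03, and the cause was not tested. Median ratio scaling changed no member's call.

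With the replicate number as a block, 23, 4, 18, 5 and 11 members were called in the 5 comparisons. The block changed no call of stretch with the Wnt5a siRNA, where all 3 pairs correlated above 0.1. In the other comparisons not every pair did (lowest −0.019 for stretch with the control siRNA, 0.095 and 0.058 for the Wnt5a siRNA with and without stretch). These correlations do not settle whether same-numbered libraries share a culture.

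An unknown depth leaves the precision of low genes such as Oas1a, Oasl, Ifit3 and Cmpk2 to the spread between 3 libraries.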
